A study of Mus musculus with 6 samples.

Results

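Glycerolipid and phospholipid headgroup synthesis is represented here by 36 genes out of 19078 listed for immortalized mouse fibroblasts. The genes were chosen by name, for the enzymes that build phosphatidylcholine, phosphatidylethanolamine, phosphatidylserine, phosphatidylinositol, cardiolipin and triglyceride, and all 36 were found in the table. *Agpat6* and *Agpat9* stand there under their older symbols for *Gpat4* and *Gpat3*. The study sequenced poly(A) RNA of *Ms4a15* OE fibroblasts and of control fibroblasts, with 3 libraries in each of the 2 groups. *Ms4a15* OE cells are pooled lines in which the endogenous *Ms4a15* gene was switched on by guide-directed CRISPR activation. The paper lists the parent cells of both groups as male embryonic fibroblasts with a conditional *Gpx4* deletion and a Cre-ERt2 transgene. The labels give control cells the genotype wild type, and by the paper they had received an empty lentivirus. Both groups grew in the same serum-containing medium, and the labels list no treatment for them. Nothing in the labels says whether the libraries of a group came from separate cultures.

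The values below are the authors' means over all 6 libraries, in counts normalized between libraries. A mean of this kind describes the fibroblasts of both groups together and carries no spread between replicates. The columns of the table that compare the groups were not used here, so no difference between *Ms4a15* OE and control is given for any gene, and nothing below was tested. All levels are from bulk RNA, in which fewer cells that use a gene and less RNA per cell cannot be told apart.

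Membrane glycerolipids are assembled from glycerol 3-phosphate, which is acylated to lysophosphatidic acid and then to phosphatidic acid. Phosphatidic acid either loses its phosphate to give diacylglycerol, which feeds triglyceride and the Kennedy pathway to phosphatidylcholine and phosphatidylethanolamine, or is activated to CDP-diacylglycerol, which feeds phosphatidylinositol and cardiolipin. Fibroblasts make these lipids for their own membranes, whereas adipocytes and hepatocytes also make much triglyceride for storage or export.

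The fibroblast label was checked against marker genes. All 8 fibroblast markers had a mean of at least 10 normalized counts, among them the collagen gene *Col1a1* at 66981 and the intermediate filament gene *Vim* at 115135. Of the 4 epithelial markers only *Krt8* reached 10, at a mean of 10.9, and *Epcam* was at 0.176. All 3 listed myeloid markers reached it, with *Cd68* at 164, *Csf1r* at 13.2 and *Ptprc*, the pan-leukocyte antigen, at 11.1. The adipocyte markers were at 10.5 for *Plin1*, 8.38 for *Fabp4* and 0.364 for *Adipoq*. The hepatocyte markers *Alb* and *Apoa1* had means of 0.163 and 0.690. *Ms4a15* itself had a mean of 638, which pools the cells that overexpress it with those that do not.

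Of the 36 genes, 33 had a mean of at least 10 normalized counts (91.7%), against 67.7% of all genes of the table. All 33 also exceeded 100, and 21 exceeded 1000 (58.3%, against 35.0% of the table). For comparison between genes, each mean was divided by the length of the gene's exons in kilobases. The median level per kilobase was 249 for the 36 genes and 116 for the 16135 genes of the table that could be located. The remaining 3 genes, *Cds1*, *Gpat2* and *Mogat1*, were close to silent. The values of 1 read in each library could be read from the table, and they put *Cds1* at 4 reads and *Mogat1* at 5 reads in all 6 libraries together, and *Gpat2* at 10 to 11 reads.

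These 3 genes differ in the DNA before their start. The stretches upstream of *Cds1*, *Gpat2* and *Mogat1* are shown with that of *Cds2*, the paralog of *Cds1* that was well expressed. CpG dinucleotides, the sites of DNA methylation, are in capitals. The sequences are from RefSeq on GRCm38.p6, all on the plus strand, and lie at chr5:101764880-101765129 for *Cds1*, chr2:132262898-132263147 for *Cds2*, chr1:78510810-78510990 for *Mogat1* and chr2:127424949-127425198 for *Gpat2*.
Cds1: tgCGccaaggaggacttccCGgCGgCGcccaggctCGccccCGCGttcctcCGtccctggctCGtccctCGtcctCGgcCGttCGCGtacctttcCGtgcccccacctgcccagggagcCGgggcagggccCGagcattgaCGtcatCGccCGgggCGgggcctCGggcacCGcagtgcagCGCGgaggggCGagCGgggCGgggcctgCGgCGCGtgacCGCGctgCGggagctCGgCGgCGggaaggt
Cds2: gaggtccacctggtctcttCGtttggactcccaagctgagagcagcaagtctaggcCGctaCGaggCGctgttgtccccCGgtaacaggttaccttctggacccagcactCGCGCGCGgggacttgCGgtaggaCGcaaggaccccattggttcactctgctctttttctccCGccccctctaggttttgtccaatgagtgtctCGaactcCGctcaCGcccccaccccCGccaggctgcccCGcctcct
Gpat2: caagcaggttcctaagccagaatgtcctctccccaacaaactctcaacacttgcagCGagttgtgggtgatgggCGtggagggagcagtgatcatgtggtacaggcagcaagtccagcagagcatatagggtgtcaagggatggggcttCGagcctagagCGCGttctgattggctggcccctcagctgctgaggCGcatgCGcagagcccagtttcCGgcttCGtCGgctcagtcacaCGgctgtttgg
Mogat1: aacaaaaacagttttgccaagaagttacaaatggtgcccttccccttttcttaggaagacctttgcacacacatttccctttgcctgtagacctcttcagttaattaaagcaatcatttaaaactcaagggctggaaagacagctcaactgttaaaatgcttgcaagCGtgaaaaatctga
The *Cds1* stretch holds 37 CpG and the *Cds2* stretch 17, each in 250 bases. Of the 2 listed starts of *Cds2*, the one with the most CpG was taken. The *Gpat2* stretch holds 11 CpG in 250 bases. The *Mogat1* stretch is cut to 181 bases before the annotated transcript and holds 1 CpG, and its full window of 250 bases holds 2. *Cds1*, with the lowest mean of the 36 genes, thus had more CpG before its start than its expressed paralog.

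The Kennedy pathway builds phosphatidylcholine and phosphatidylethanolamine by phosphorylating the headgroup, activating it with CTP and joining it to diacylglycerol. Its 8 genes had means between 997 and 11906, with a median of 1868, and none was near the minimum. *Etnk1*, an ethanolamine kinase (chr6:143167221-143232307, plus strand), had a mean of 11906 and alone made up 17.6% of the summed means of all 36 genes. The choline kinases *Chka* (chr19:3851773-3894369) and *Chkb* (chr15:89426360-89429908) had means of 1950 and 1036. Per kilobase of exon the order of the kinases was *Etnk1* at 841, *Chkb* at 338 and *Chka* at 162. *Etnk1* thus took 62.7% of the summed kinase level, *Chkb* 25.2% and *Chka* 12.1%. The sum joins an ethanolamine kinase with choline kinases, so these are not shares of a single reaction. The exons of *Chka* are long, and without division by length, as per kilobase of coding sequence, *Chka* stood above *Chkb*, at 13.1% against 6.95% in the undivided means.

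The enzyme that activates phosphocholine with CTP is regarded as the rate-setting enzyme of phosphatidylcholine synthesis. Its gene *Pcyt1a* (chr16:32430921-32475070) had a mean of 2835 and *Pcyt1b* (chrX:93654863-93749951) a mean of 997. *Pcyt1a* made up 67.3% of the 2 per kilobase. *Pcyt2*, which activates phosphoethanolamine, had a mean of 2232 and a level of 513 per kilobase of exon, beside 382 for *Pcyt1a* and 186 for *Pcyt1b*. Undivided, and per kilobase of coding sequence (2575 against 1841), *Pcyt1a* stood above *Pcyt2*. The last step uses *Cept1*, which accepts both headgroups, and *Chpt1*, which accepts choline. Their means were 1786 and 1542, close to each other, but per kilobase *Cept1* was at 573 and *Chpt1* at 185. Of the exonic bases of *Cept1*, 24.7% are shared with *Dennd2d* on the opposite strand, which had a mean of 106. The labels describe strand-specific libraries and the paper another version of the kit, and the strand setting of the counting is not given in the sources used here, so reads of such pairs may be mixed.

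**Figure D1:**
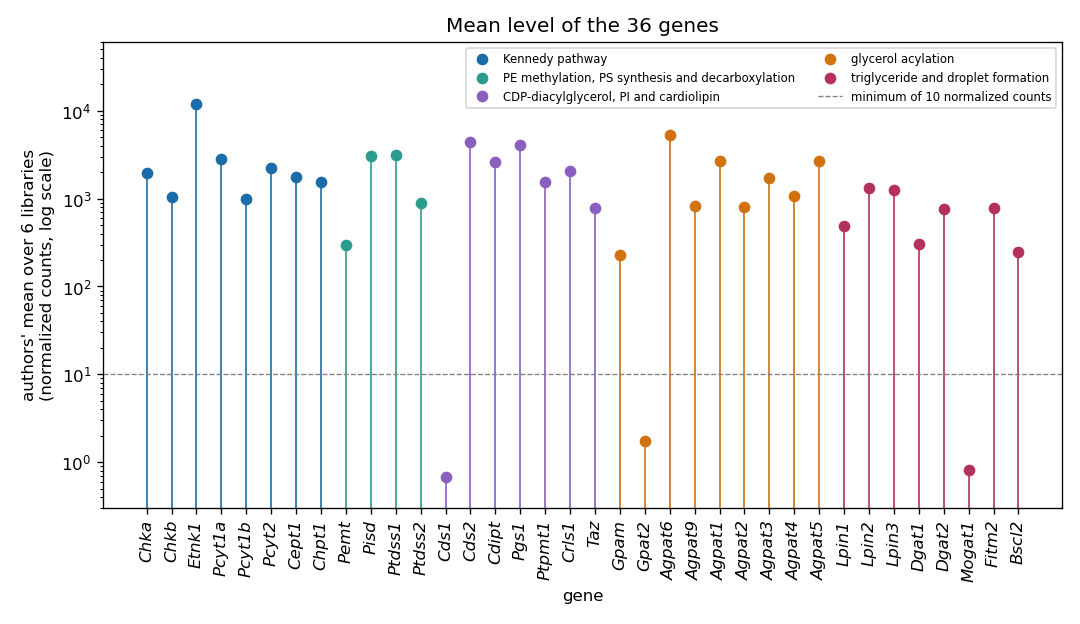
The authors' mean over 6 libraries per gene (normalized counts, log scale) for the 36 genes, ordered and coloured by role, not divided by length. Each point is one gene, its stem only leads the eye to the name, and the dashed line marks the minimum of 10. All but *Cds1*, *Gpat2* and *Mogat1* lie above 100, and *Etnk1* is highest at 11906.

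Phosphatidylethanolamine and phosphatidylserine are interconverted by base exchange and decarboxylation. *Ptdss1*, a phosphatidylserine synthase that starts mainly from phosphatidylcholine (chr13:66932830-66998401), had a mean of 3176, and *Ptdss2*, which starts from phosphatidylethanolamine (chr7:141122382-141157606), a mean of 900. Per kilobase they were at 740 and 160, a share of 82.2% for *Ptdss1*. *Pisd*, the mitochondrial phosphatidylserine decarboxylase (chr5:32736301-32785646), had a mean of 3021 and a level of 525 per kilobase. The table also lists *Pisd-ps1* at 5133 and *Pisd-ps2* at 1053, copies of *Pisd* by name, which were looked up after the values were seen. Their sequences were not compared with that of *Pisd*, and whether reads are shared is not known, so the *Pisd* counts are uncertain. *Pemt*, which methylates phosphatidylethanolamine to phosphatidylcholine and is best known from liver (chr11:59970614-60046489), had a mean of 295. At 140 per kilobase of exon, *Pemt* and *Taz*, at 145, were the lowest of the 18 steps into which the genes were sorted, each step summed over its genes. Their counting intervals (134 to 147 and 141 to 150) overlap. The place of *Taz* depends on the length used. Per kilobase of coding sequence *Taz* (989) stood above the diacylglycerol and monoacylglycerol acyltransferases (859). Per kilobase of transcript *Taz* (437) stood above droplet formation (323).

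The CDP-diacylglycerol branch makes phosphatidylinositol and cardiolipin, the lipid of the inner mitochondrial membrane. *Cds2*, a CDP-diacylglycerol synthase (chr2:132263148-132312050), had a mean of 4373. *Cds1*, its paralog (chr5:101765130-101823858), had a mean of 0.682, for which counting error alone gives a 95% interval from 0.186 to 1.75. *Cds2* thus made up 99.96% of the summed level of these 2 genes per kilobase. The phosphatidylinositol synthase gene *Cdipt* (chr7:126975914-126980501) had a mean of 2635 and, at 1017 per kilobase of exon, the highest level of the 36 genes on that scale. Undivided, per kilobase of coding sequence (10640 against 3886) and per kilobase of transcript (6648 against 2771), *Etnk1* stood above *Cdipt*.

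The 4 genes of the cardiolipin route were each expressed. *Pgs1*, which makes phosphatidylglycerol phosphate, had a mean of 4117 and was at 772 per kilobase. *Ptpmt1*, the phosphatase that follows it, had a mean of 1550 and was at 421. *Crls1*, the cardiolipin synthase, had a mean of 2088 and was at 1003 per kilobase. The counting intervals of *Crls1* (985 to 1021) and *Cdipt* (1001 to 1033) overlap, so their order is not resolved on that scale. *Taz* is here tafazzin, the transacylase that remodels cardiolipin, and was lower, with a mean of 780 and 145 per kilobase. Of the exonic bases of *Ptpmt1*, 45.0% are shared with *Kbtbd4* on the opposite strand, which had a mean of 1361, so the *Ptpmt1* level is uncertain for the reason given for *Cept1*.

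Glycerol 3-phosphate acyltransferases start the pathway. *Agpat6*, now named *Gpat4* (chr8:23171265-23208346), had a mean of 5243, the second highest of the 36 genes before division by length. *Agpat9*, now *Gpat3* (chr5:100845713-100899102), had a mean of 815. Both encode enzymes of the endoplasmic reticulum. *Gpam*, the mitochondrial enzyme also known as GPAT1 (chr19:55067268-55127238), had a mean of 231, the lowest of the 33 genes above the minimum. *Gpat2*, the other mitochondrial form (chr2:127425199-127436092), had a mean of 1.74 with a counting interval of 0.852 to 3.17. Per kilobase *Agpat6* took 74.5% of the step, *Agpat9* 22.1%, *Gpam* 3.30% and *Gpat2* 0.0630%, so nearly all of this RNA coded for the forms of the endoplasmic reticulum.

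The second acylation, to phosphatidic acid, was spread over 5 genes rather than carried by 1. Their means were 2682 for *Agpat1*, 794 for *Agpat2*, 1739 for *Agpat3*, 1063 for *Agpat4* and 2687 for *Agpat5*. Per kilobase *Agpat1* (chr17:34604262-34613449) was at 894 and made up 41.9% of the step, with *Agpat4* at 18.5%, *Agpat2* at 17.5%, *Agpat5* at 11.7% and *Agpat3* at 10.5%. Before division by length *Agpat1* and *Agpat5* were level, at 29.9% and 29.97%, with overlapping counting intervals. The 5 genes added up to 2132 per kilobase, beside 1342 for the kinases of the Kennedy pathway. That order held for exon length only: the kinases had the higher sum undivided (14892 against 8964), per kilobase of coding sequence (12951 against 9021) and per kilobase of the transcript with the longest coding sequence (8095 against 2853). *Agpat2*, whose loss causes lipodystrophy, was at 373 per kilobase.

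**Figure D2:**
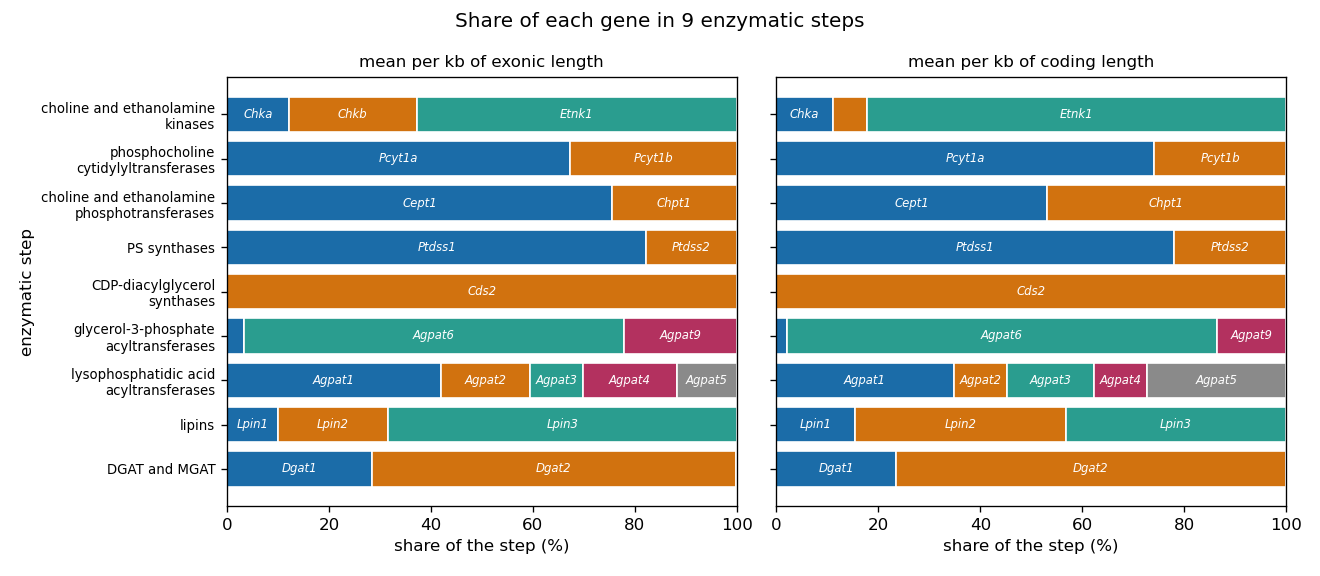
Share of each gene in its enzymatic step (percent), for the 9 steps with at least 2 genes, from levels per kilobase of exon and, beside them, per kilobase of coding sequence; segments too thin to hold a name are not labelled. *Cds2* fills its step, *Agpat6*, *Ptdss1* and *Cept1* take most of theirs per kilobase of exon, and the lysophosphatidic acid acyltransferases are split.

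The 8 genes of triglyceride synthesis and droplet formation were the lowest class, with a median mean of 624 and a median of 103 per kilobase, against 1868 and 360 in the Kennedy pathway. Lipins dephosphorylate phosphatidic acid to diacylglycerol. Their means were 484 for *Lpin1* (chr12:16535669-16610966), 1320 for *Lpin2* (chr17:71182560-71249817) and 1264 for *Lpin3* (chr2:160880670-160906002). Per kilobase the order was *Lpin3* at 342, *Lpin2* at 108 and *Lpin1* at 50.1, and *Lpin3* made up 68.4% of the lipin sum. That share depends on the long exons of *Lpin2* and *Lpin1*: undivided, *Lpin2* had 43.0% and *Lpin3* 41.2%, and their counting intervals overlapped.

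Acyl-CoA:diacylglycerol acyltransferases complete triglyceride. *Dgat2* (chr7:99153658-99182719) had a mean of 765 and *Dgat1* (chr15:76502015-76511953) a mean of 301. *Mogat1*, which acylates monoacylglycerol (chr1:78510991-78538173), had a mean of 0.810 with a counting interval of 0.263 to 1.89. *Dgat2* took 71.5% of the 3 per kilobase and *Dgat1* 28.4%. *Fitm2*, which is needed for droplets to bud, had a mean of 783, and *Bscl2*, the gene of seipin, which organizes droplet contact with the endoplasmic reticulum, a mean of 247. Per kilobase *Fitm2* was at 197 and *Bscl2* at 42.0.

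Across the 33 genes above the minimum, the highest level per kilobase of exon was 29.3 times the lowest, which was that of *Gpam* at 34.7. The range was wider on the other scales, where *Etnk1* was highest and *Gpam* lowest: 51.5 times undivided, 114 times per kilobase of coding sequence (without *Ptpmt1*, which has no coding length in the annotation) and 177 times per kilobase of transcript. For these genes the half-width of the 95% Poisson interval had a median of 2.05% of the mean and a maximum of 5.31%. PCR copies are not independent molecules, so these intervals cover counting error only.

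A further 15 genes around the same reactions were listed in the table, and 13 of them had a mean of at least 10. Of the suppliers of glycerol 3-phosphate, *Gyk*, glycerol kinase, was at 2633, *Gpd1l* at 681 and *Gpd1*, the cytosolic dehydrogenase, at 43.1. *Gpd2*, the mitochondrial dehydrogenase, which uses up glycerol 3-phosphate, was at 7174. The lipid phosphate phosphatases *Ppap2c*, *Ppap2b* and *Ppap2a* had means of 4205, 2291 and 1537. Among the choline transporter-like genes *Slc44a2* and *Slc44a1* had means of 2681 and 1689, whereas *Slc44a4* and *Slc44a3* were at 3.71 and 3.19. *Ept1*, the ethanolamine phosphotransferase, had a mean of 530 and 40.3 per kilobase of exon, beside 573 for *Cept1*. *Lclat1*, a lysocardiolipin acyltransferase, was at 1731, and *Dgke*, a diacylglycerol kinase, at 1015. *Mogat2*, a paralog of *Mogat1*, had a mean of 39.5.

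Windows of 250 bases before a listed start were at hand in RefSeq for 29 of the 36 genes. Where several starts were listed for a gene, the window with the most CpG was taken. Which start these cells use is not known here. The windows taken held a median of 17 CpG, against 15 over the genes of the table with such a window. Among 12055 protein-coding genes of the table, the median mean was 3.11 with 0 to 4 CpG, 106 with 5 to 9, 837 with 10 to 14 and 1277 with 15 to 19. Against that background *Cds1*, with 37 CpG, lay far below the median of 1753 for genes with 30 or more, of which 88.1% had a mean of at least 10. *Gpat2*, with 11 CpG and a mean of 1.74, likewise lay below the median of 837 for genes with 10 to 14, of which 82.1% had a mean of at least 10. *Lpin1* with 1 CpG and *Pemt* with 2 lay above the median of their range. *Mogat1*, also with 2, lay below it, and 37.5% of the genes with 0 to 4 CpG had a mean of at least 10. *Lpin2* held 50 CpG, the most among the 29.

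**Figure D3:**
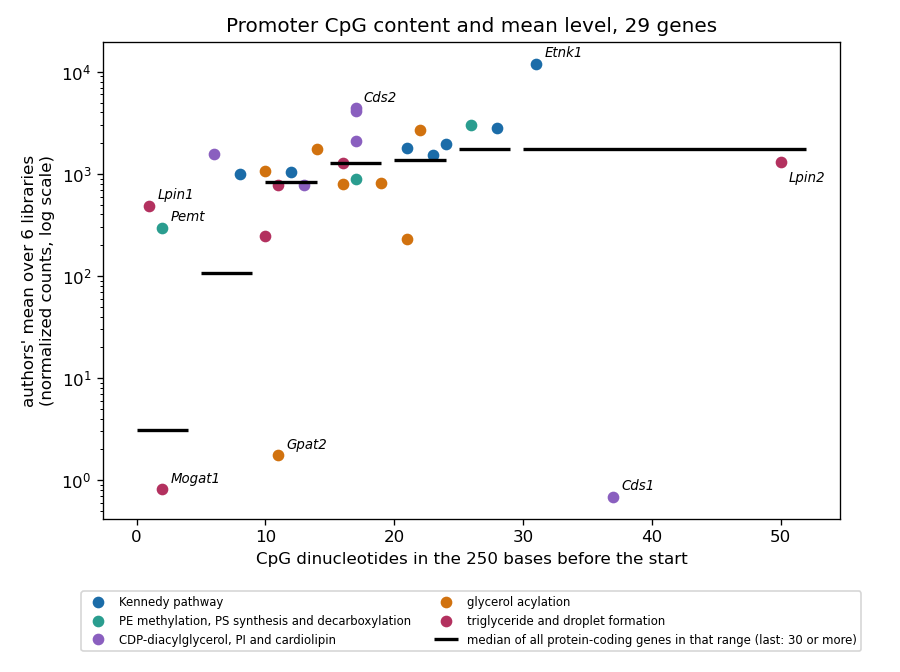
CpG dinucleotides in the 250 bases before the start against the authors' mean over 6 libraries (normalized counts, log scale) for 29 genes. Genes are coloured by role, and where several starts are listed the window with the most CpG is used. Black lines are the medians of all protein-coding genes in each range of CpG, the last of 30 or more. *Cds1* sits at 37 CpG with a mean of 0.682, far under the line at 1753, while *Lpin1* and *Pemt* sit above the line at 3.11.

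For 4 motifs, all listed windows of these 29 genes were searched on both strands, not only those with the most CpG. A gene was counted if any of its windows held the motif. TCACNCCAC, the sterol response element bound by SREBP, was found before *Pcyt1a*, 1 of 29 genes (3.45%), against 1.29% of 12328 genes of the table. The E-box CACGTG was found before *Crls1* and *Lpin2* (6.90% against 9.08%), and TATAAA before *Chkb* (3.45% against 9.41%). CCAAT was found before 13 of the 29 genes (44.8% against 40.0%). These matches are letters in a window and say nothing of a factor being bound.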

How the data were processed

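Poly(A) RNA of 3 *Ms4a15* OE and 3 control libraries was sequenced by the authors, who aligned reads to mm10, counted them per gene with HTSeq and normalized with DESeq2. The paper names STAR as aligner, whereas the submitters' processing notes name TopHat, Cufflinks and Cuffdiff as well, and the sources differ on the library kit, read length and extraction kit. The signal used from the deposited table averages, for each gene, the size-factor-normalized counts of the 6 libraries of both groups. The table also holds the authors' own comparison of the groups (log2 fold change, standard error, p-value, adjusted p-value and direction), which was neither used nor compared with the values given here. No single library could be analysed, so the planned tests between the groups were not run.

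Depth is known only from size factors, recovered from 6 values that are each shared by at least 149 genes and stand for 1 read. They ranged from 0.887 to 1.14, and the library totals are unknown. The recovery was tested on simulated data. Genes were matched by symbol to GENCODE M21 (GRCm38, which is mm10), which located 16135 of 19078. Means were divided by the union of exons, and intervals are 95% Poisson intervals for the total of reads. That total was resolved for *Cds1* and *Mogat1*. For the other genes it was approximated as the mean divided by the average value of 1 read. CpG was counted in RefSeq windows of 250 bases, taking for each gene the listed window with the most CpG. Motifs were searched in all listed windows of a gene. Every member could be named, and beyond these *Ms4a15*, a list of pathway genes and cell type markers. Other genes that are named (*Dennd2d*, *Kbtbd4* and the *Pisd* copies) were chosen after their values were seen. The members and lists were chosen with earlier results of these data known. Python 3.11.15, numpy 2.4.6, pandas 2.3.3, scipy 1.17.1 and matplotlib 3.10.9 were used.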

Additional observations from a re-analysis of the deposited data

How the results depend on the processing

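Levels without division by length gave shares of their step of 80.0% for *Etnk1*, 74.0% for *Pcyt1a*, 53.7% for *Cept1*, 77.9% for *Ptdss1*, 83.3% for *Agpat6*, 29.9% for *Agpat1* and 41.2% for *Lpin3*. Coding length gave 82.2% for *Etnk1*, 74.1% for *Pcyt1a*, 53.1% for *Cept1*, 77.9% for *Ptdss1*, 84.3% for *Agpat6*, 34.8% for *Agpat1*, 43.1% for *Lpin3* and 76.5% for *Dgat2*. The length of the transcript with the longest coding sequence, an alternative chosen after seeing the data, gave 82.1% for *Etnk1*, 74.4% for *Pcyt1a*, 66.7% for *Cept1*, 78.9% for *Ptdss1*, 75.7% for *Agpat6*, 42.9% for *Agpat1*, 49.3% for *Lpin3* and 67.9% for *Dgat2*. The leading gene was the same in 9 of 9 steps under both other lengths and in 7 of 9 without division, where *Agpat5* and *Lpin2* led. The range of levels was also computed on these scales after seeing the data. Minimums of 3 and 100 each left 33 genes. The median percentile of the 36 genes among all genes was 68.8, against 57.9 once genes with means under 10 were left out and 61.8 for levels per kilobase.

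No paired analysis was possible because the values are means over all 6 libraries and no single library was analysed. For the same reason the planned edgeR test and its alternatives (another normalization, another filter or pseudocount, DESeq2, each replicate left out) were not run. Protein identities within a step and their alternative were not computed, since no protein sequences were used here. Without a spread between replicates, the levels are a description of these 6 libraries, and depth limits only *Cds1*, *Mogat1* and *Gpat2* to a few reads.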
